A study of Mus musculus with 12 samples.

Results

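Complex I of the respiratory chain (NADH:ubiquinone oxidoreductase) was followed through its nuclear genes, taken as every symbol of the table of all libraries that begins with Ndufa, Ndufb, Ndufc, Ndufs or Ndufv and goes on with a digit. The rule found 37 of 23235 genes. All 37 passed the filter on low values, a mean of at least 1 FPKM (fragments per kilobase of transcript, scaled to the library) over 12 libraries, as did 11667 genes of the table. Of the 37, 35 encode subunits of the complex: 7 core subunits, 9 accessory subunits of the matrix arm and 19 accessory subunits of the membrane arm. The other two symbols, Ndufa4 and its paralogue Ndufa4l2, carry the family name only. Ndufa4 is now assigned to cytochrome c oxidase (complex IV), so these genes are given apart.

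Complex I is an L-shaped assembly of the mitochondrial inner membrane. Its matrix arm takes electrons from NADH through a flavin and a chain of iron-sulfur clusters to ubiquinone, and its membrane arm pumps protons. The core subunits carry out this chemistry and are shared with bacteria, while the accessory subunits wrap and stabilise them. The core of the membrane arm is encoded by mitochondrial DNA, and those genes were not analysed here. Fully grown mouse oocytes do not transcribe, so their proteins are made from stored maternal RNA, which is progressively deadenylated and removed during meiotic maturation. Cnot6l is one of the deadenylase enzymes of CCR4-NOT, the complex that shortens poly(A) tails.

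RNA bound to polysomes was sequenced from oocytes of C57BL/6 mice at postnatal day 21, in Cnot6l-/- (KO) and wild-type (WT) animals, with 2 libraries in each of 6 groups. KO oocytes were taken at the germinal vesicle stage (GV, 48 h after PMSG, a gonadotropin that makes follicles grow), at meiosis I (MI, 8 h of culture) and at meiosis II (MII, 16 h of culture), and WT oocytes at the same stages and times. The labels give the KO as Cnot6l-/-, without naming the deleted part, and leave unsaid whether the libraries of a group came from separate animals or pools, so p-values measure the spread between these libraries, which may be technical. In such RNA, a lower level can reflect less transcript in the oocyte or less of it on polysomes, and these cannot be told apart here.

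Total FPKM per library was 1067558 to 1663871 in KO and 884142 to 1280736 in WT, and depth in reads is unknown. Cnot6l had 6.28 and 21.6 FPKM in KO and 38.7 and 16.1 FPKM in WT at GV, which overlap. It had 23.5 and 16.5 FPKM in KO and 68.5 and 47.9 FPKM in WT at MI, and 16.4 and 16.0 FPKM in KO and 65.2 and 49.4 FPKM in WT at MII, with no overlap at either stage. In limma its log2 difference, KO minus WT, was not called at GV (−1.02, adjusted p = 0.626) or at MI (−1.49, adjusted p = 0.0726). At MII the difference was −1.75 (limma adjusted p = 0.0425), a call lost in 11 of 18 alternatives. All 12 oocyte markers were above 0 in every library. The 14 cumulus and granulosa markers summed to 158 and 219 FPKM at GV, 179 and 142 at MI, then 87.4 and 127 at MII in KO, and to 303 and 327, 118 and 135, and 66.5 and 55.4 FPKM in WT. Foxl2 was at 0 in all 12 libraries and Inha, the leading marker at GV, was at 0 in both WT MII libraries. Cyp19a1 averaged 12.9, 96.4 and 81.1 FPKM at GV, MI and MII in KO and lay between 23.5 and 47.6 FPKM in all WT libraries, and Ptx3 averaged 0, 7.43 and 0.175 FPKM in KO and 0, 36.2 and 16.2 FPKM in WT, so single markers differed in direction. The sum was lower at MI than at GV in both WT libraries and lower at MII than at MI in both genotypes, as the summed complex I genes were, while at MI and GV the KO libraries overlap. At MII the sum was higher in both KO than in both WT libraries, as the summed complex I genes were. Of these markers, limma called Inha and Inhba higher and Ptx3 lower in KO at MII. The part of these markers in the results was not tested. The 9 markers of theca, stroma, endothelium and blood summed to 13.1 to 70.2 FPKM, nearly all from Pecam1, with Cyp17a1, Col1a1, Col1a2, Cdh5 and Ptprc at 0 throughout.

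The transcripts of the family are short. A transcript of GENCODE vM1 (build NCBIM37, the mm9 of the files) that ends within 30 bases of the deposited 3′ end was found for 33 of the 37 genes (89.2%) and for 81.7% of all genes tested. Median transcript length was 763 bases for these members and 2637 bases for all genes, and median 3′ UTR length was 121 and 796 bases. Cytoplasmic polyadenylation elements are U-rich motifs near the 3′ end that recruit the regulator CPEB in oocytes. They were searched for as TTTTAT or TTTTAAT on the transcript strand, in the part of the last 100 bases that lies in the 3′ UTR. They were present in 3 of 33 members (9.1%), Ndufc2, Ndufs4 and Ndufa2, and in 19.8% of all genes. A 3′ UTR under 100 bases, as in Ndufs7 (59 bases) and Ndufv1 (82 bases), gave a shorter window, so these shares do not come from equal windows. The poly(A) signal, AATAAA or ATTAAA in the last 50 bases of the same strand, was present in 27 members (81.8%) and in 81.3% of all genes. These letters describe the annotated ends only, and the windows below were picked after the values were known. The element of 2 of those members, Ndufc2 and Ndufs4, is shown first, then the poly(A) signal of a gene that rose (Ndufa4) and of a few with large decreases, with the motif in capitals.
Ndufc2, element, chr7:104556227-104556256, plus strand: tttctgagTTTTATgggattttctgtgaca
Ndufs4, element, chr13:115078039-115078068, minus strand: tggagatcTTTTATtcttaggaaataagtt
Ndufa4, poly(A) signal, chr6:11850373-11850399, minus strand: cactgatgAATAAAtctctgaaacttg
Ndufs7, poly(A) signal, chr10:79719511-79719537, plus strand: cccttgtgAATAAAcccatcctgatcc
Ndufv1, poly(A) signal, chr19:4007510-4007539, minus strand: aactggacAATAAAcaagtgctgtccactc
Ndufb7, poly(A) signal, chr8:86095490-86095519, plus strand: atcagtgaAATAAAagctttgggtcacctg

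As a group, the 35 subunit genes held a smaller share of polysome-bound RNA at each later stage in both genotypes. Their FPKM summed to 12699 and 12979.5 at GV, 14779 and 16309 at MI, then 8394 and 8149 at MII in KO. In WT the sums were 14933 and 15455 at GV, 7386 and 7557 at MI, then 3832 and 3727 at MII. As a share of total FPKM, KO libraries gave 1.19% and 1.21% (GV), 0.904% and 0.980% (MI) and 0.693% and 0.671% (MII). The shares in WT were 1.19% and 1.21%, 0.710% and 0.711%, and 0.431% and 0.422%. The GV shares of the genotypes were alike, and both KO libraries lay above both WT libraries at MI and at MII. The median subunit had 173 and 156 FPKM in KO and 57.2 and 64.5 FPKM in WT at MII, where 4 and 3 of the 35 genes in KO and 17 and 16 in WT were below 50 FPKM.

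**Figure D1:**
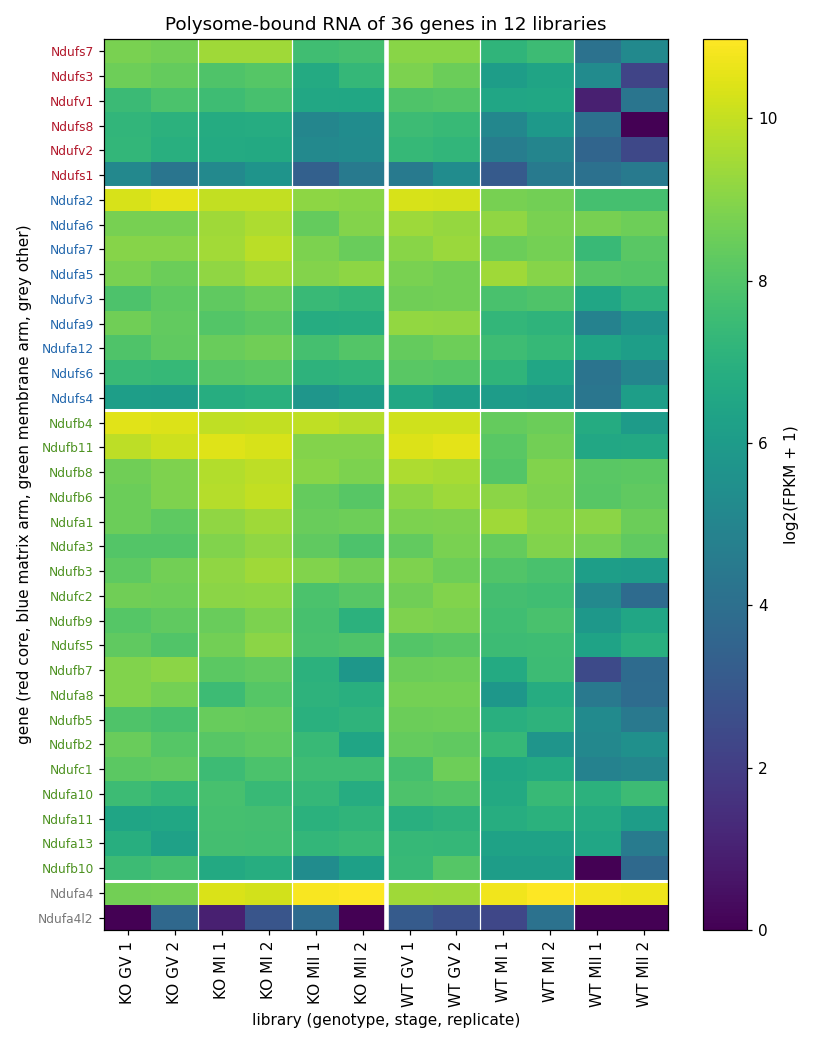
Level of each of 36 genes (rows, grouped by role and ordered by mean level) in each of 12 libraries (columns), as log2(FPKM + 1). Apart from Ndufs1, the core subunits in the top block turn darkest in the WT MII columns (0 FPKM in 1 library for Ndufs8, 0.93 FPKM in 1 for Ndufv1). The row of Ndufa4 brightens after GV in both genotypes.

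Over the 12 libraries the highest means among the 35 subunits were those of Ndufb4 (818 FPKM) and Ndufa2 (797 FPKM). The lowest were those of Ndufs1 (24.6 FPKM) and Ndufs4 (73.1 FPKM). Outside the complex, Ndufa4 averaged 1299 FPKM and Ndufa4l2 5.56 FPKM. FPKM is a level per length, so the subunit genes differed widely in polysome-bound RNA. By role, the median group mean at GV was 179 FPKM for the core, 353 FPKM for the matrix arm and 315 FPKM for the membrane arm in KO, and 204, 419.7 and 382 FPKM in WT.

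By MII the median subunit RNA was below its GV level on polysomes in both genotypes, further in WT than in KO oocytes. The percentages are of FPKM as deposited, so they also carry the change in library totals. In KO those totals were 1067558 and 1071813 at GV and 1635234 and 1663871 at MI. In WT they were 1252142 and 1280736 at GV and 889989 and 884142 at MII. As a share of total FPKM the 35 genes were lower at MI than at GV in KO. In KO the median subunit stood at 138% of its GV mean at MI and at 62.2% at MII. At MII in KO the subunits ran from 18.2% for Ndufb7 to 166% for Ndufa13, and none was below 10%. In WT the median subunit stood at 46.8% of its GV mean at MI and at 16.3% at MII. At MII in WT they ran from 2.4%, again for Ndufb7, to 98.1% for Ndufa1, and 15 of the 35 were below 10%.

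**Figure D2:**
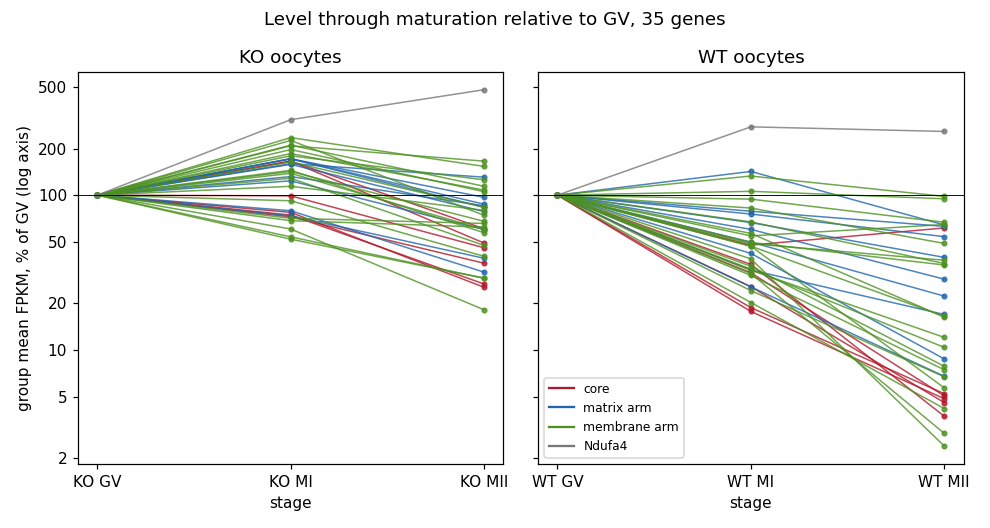
Group mean FPKM at each stage as a percentage of the GV mean of the same genotype (log axis), KO left and WT right, 1 line per gene for 35 genes coloured by role. Ndufa4l2 is not drawn because it was near 0. FPKM are as deposited, so the lines also carry the change in library totals. By MII the lines spread from 18.2% to 166% for the subunits in KO and from 2.4% to 98.1% in WT, with Ndufa4 above all of them in both panels.

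From GV to MI in WT, 20 of the 37 genes fell and 1, Ndufa4, rose in limma at an adjusted p below 0.05, against 21.7% of all genes called lower and 3.06% called higher. The median difference, MI minus GV on the log2(FPKM + 1) scale, was −1.12 for the 35 subunits and −0.87 for all genes. By role, 4 of 7 core genes (median −1.91), 5 of 9 matrix arm genes (median −0.73) and 11 of 19 membrane arm genes (median −1.10) fell. All genes thus shifted too. With libraries scaled to the same median over genes with a mean of at least 10 FPKM, 7 genes (among them Ndufa2, Ndufa8, Ndufa9, Ndufb4, Ndufb11 and Ndufv2) were called lower and 5 (Ndufa1, Ndufa3, Ndufa4, Ndufa5 and Ndufb6) higher, against 5.9% and 8.25% of all genes. The 20 decreases became 11 without WT GV replicate 1 and 13 without WT GV replicate 2, and the 1 increase became 2 without the second WT MI library or either WT MII library.

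From MI to MII in WT, 25 genes fell, against 16.4% of all genes, and none rose in limma, against 5.68% of all genes. At an unadjusted p below 0.05, 0 of the 37 rose, against 1218 of the 11667 genes. The median difference, MII minus MI, was −1.52 for the 35 subunits and −0.27 for all genes, a relative difference of −1.26. By role, 6 of 7 core genes (median −2.59) fell, with 7 of 9 in the matrix arm (median −1.09) and 12 of 19 in the membrane arm (median −1.52). At an unadjusted p below 0.05, 2 of the 37 rose with median scaling, against 1925 of 11739 genes. By adjusted p, median scaling called 20 genes lower and none higher, against 13.5% and 11.0% of all genes. These calls rest on a spread pooled over all groups: the WT MII libraries differed more for these genes (median absolute log2 difference 0.56, and 0.12 to 0.24 in the other groups), and a limma fit of only these stages of WT called 0 of the 37 genes and 0.0% of all genes, with 20 of the 37 and 15.3% of all genes lower at an unadjusted p below 0.05.

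In KO oocytes the direction of the step from GV to MI depended on the scale. On FPKM as deposited, at MI 9 genes were higher than at GV (Ndufa4 and 8 subunits, 6 of them in the membrane arm) and 1, Ndufa2, was lower, against 8.89% and 1.35% of all genes; no core gene was called. The median difference was 0.46 for the 35 subunits and 0.26 for all genes. With rescaling to the same total 1 gene (Ndufa4) rose and 5 fell, against 2.71% and 3.69% of all genes, and the median difference was −0.16 for the 35 subunits and −0.29 for all genes. With median scaling the median subunit was at 0.17 and 3 genes rose (Ndufa4, Ndufa11 and Ndufb6) and 3 fell (Ndufa2, Ndufa8 and Ndufb4), against 4.82% and 1.83% of all genes. The 9 increases became 4 and 5 without KO GV replicate 1 and 2, 3 and 2 without KO MI replicate 1 and 2, and 16 without either WT MII library. The 1 decrease became 0 without KO GV replicate 2 or either KO MI library, and 2 without either WT MI or either WT MII library.

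From MI to MII in KO, 17 genes fell and Ndufa4 rose, against 7.18% and 0.163% of all genes. The median difference was −1.01 for the 35 subunits and −0.59 for all genes, with 3 of 7 core, 5 of 9 matrix arm and 9 of 19 membrane arm genes called. With median scaling 2 genes fell (Ndufb6 and Ndufb11) and 1 rose (Ndufa4), against 0.562% and 0.946% of all genes. The 17 decreases became 11 without either KO GV library, 3 without either KO MI library and 6 without either KO MII library.

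Between genotypes the subunits stood furthest from all genes, by the median, at MII. At GV none was called higher in KO in limma and 1 of the 37 genes, Ndufa4, was lower, against 0.163% and 1.4% of all genes. At an unadjusted p below 0.05, 0 of the 37 were higher and 12 lower, against 378 and 844 of the 11667 genes. The median difference, KO minus WT, was −0.32 for the 35 subunits and −0.06 for all genes. Median scaling gave the same counts, 0 higher and 1 lower, Ndufa4, against 0.17% and 0.886% of all genes. At an unadjusted p below 0.05, 1 was then higher and 7 lower, against 422 and 599 of 11739 genes. The decrease of Ndufa4 was not called in a fit of the GV groups alone, in which no gene of the table was called lower (0.0%). The count called lower became 2 without either WT MI library or without WT MII replicate 1, and 3 without WT MII replicate 2.

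At MI 22 of the 37 genes were higher in KO than in WT and 1, Ndufa4, was lower, against 27.9% and 0.463% of all genes. The median difference was 1.29 for the 35 subunits and 1.03 for all genes, 0.26 apart. By role, 3 of 7 core genes (median 1.64), 6 of 9 matrix arm genes (median 0.94) and 13 of 19 membrane arm genes (median 1.31) were called. With median scaling 1 gene, Ndufb11, was higher and 3 (Ndufa1, Ndufa4 and Ndufa5) were lower, against 1.87% and 2.83% of all genes, so at MI most of these differences did not exceed the difference of the table as a whole by enough to be called. Without KO MI replicate 2, which leaves 1 library in that group, fewer of these genes and also fewer of all genes were called higher.

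At MII 27 of the 37 genes were higher in KO and none was lower in limma, against 25.4% and 3.2% of all genes. At an unadjusted p below 0.05, 0 of the 37 were lower, against 584 of the 11667 genes. The median difference was 1.605 for the 35 subunits and 0.815 for all genes, 0.79 apart. By role, 6 of 7 core genes (median 3.0), 6 of 9 matrix arm genes (median 0.95) and 15 of 19 membrane arm genes (median 1.8) were called. With median scaling 18 genes were higher, among them 5 of 7 core genes, and 6 (Ndufa1, Ndufa3, Ndufa4, Ndufa6, Ndufa10 and Ndufb6) were lower, against 14.4% and 10.4% of all genes. In a fit of the MII groups alone 14 genes were called higher, against 11.7% of all genes.

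**Figure D3:**
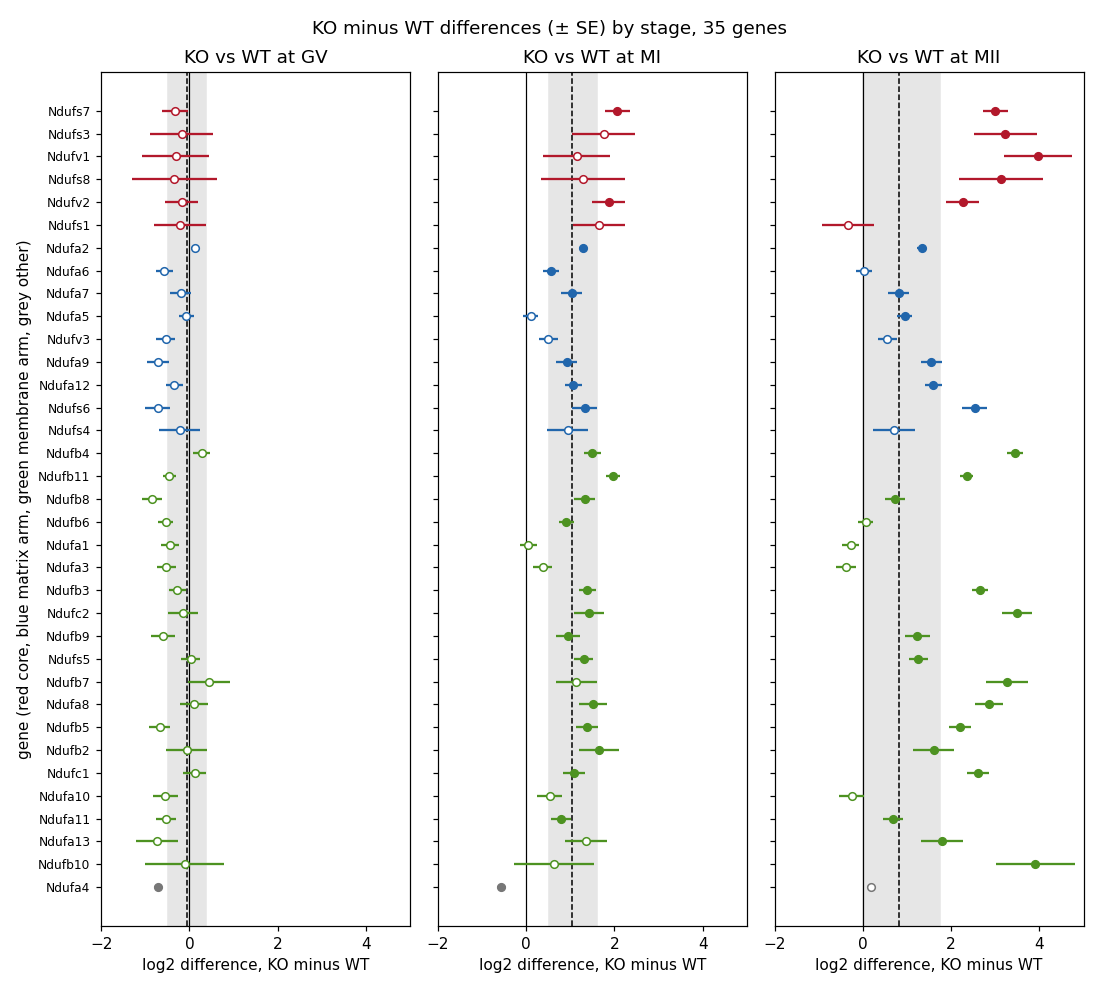
Difference KO minus WT on the log2(FPKM + 1) scale with its standard error for 35 genes at GV, MI and MII (Ndufa4l2 is not drawn). Filled points were called at an adjusted p below 0.05; the dashed line is the median of all genes tested (−0.06, 1.03 and 0.815) and the grey band their middle 50%. At MI most points lie near the dashed line, and at MII 5 of the 6 core genes drawn lie right of the band.

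The change from GV to MI was itself compared between genotypes. For 19 genes the change was higher in KO than in WT and for none lower in limma (0 also at an unadjusted p below 0.05), against 14.4% and 0.266% of all genes; the median was 1.45 for the 35 subunits and 1.13 for all genes. With median scaling 1 gene, Ndufb11, was called higher and 1, Ndufa4, lower, against 0.588% and 0.963% of all genes. The 19 became 10 without either WT GV library, 12 without KO GV replicate 1, 12 without KO MI replicate 1 and 9 without KO MI replicate 2. For the change from MI to MII, 5 genes (Ndufb3, Ndufb4, Ndufc1, Ndufc2 and Ndufa4) were higher in KO and none lower in limma (3 at an unadjusted p below 0.05), against 2.81% and 3.71% of all genes; the median was 0.45 for the 35 subunits and −0.25 for all genes. With median scaling 7 genes (among them those 5 and Ndufa5) were higher and none lower, against 4.3% and 2.31% of all genes. At an unadjusted p below 0.05, 1 was then lower, against 1012 of 11739 genes. The 5 became 10 and 12 without WT MII replicate 1 and 2. Leaving out either KO GV library gave 3 and leaving out any one KO MI or KO MII library gave 2, and 1 gene was called lower when the second WT MI or the first WT MII library was left out.

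Among the core subunits, Ndufv1 binds NADH and the flavin and is where electrons enter the complex (chr19:4007505-4012725). It had 179.8 and 231 FPKM at GV, 187 and 219.8 at MI, then 95.7 and 92.3 at MII in KO. In WT it had 244 and 264 FPKM at GV, 88.8 and 92.9 at MI, then 0.93 and 18.1 at MII. The MII groups do not overlap, and the WT values at MII were the lowest of all groups. The difference at MII was 3.97 ± 0.76 (SE, limma adjusted p = 0.00324), ranging from 2.32 to 5.62 over the alternatives, and was not called in a fit of the MII groups alone (adjusted p = 0.161). Its neighbour Ndufv2, which holds an iron-sulfur cluster beside the flavin (chr17:66428135-66450831), had 153 and 122, 105 and 100.2, and 35.5 and 38.0 FPKM over the stages in KO and 162 and 148, 23.8 and 31.2, and 10.8 and 4.21 FPKM in WT. Both KO libraries lay above both WT libraries at MI and MII. The difference was 1.87 ± 0.37 at MI (adjusted p = 0.00577), and at MII it was 2.26 ± 0.37 (adjusted p = 0.00133), and the change from GV to MI in WT was −2.46 ± 0.37 (adjusted p = 0.00125). At MI the call was lost with rescaling to the same total and with median scaling, and at MII in the fit of the MII groups alone (adjusted p = 0.0951).

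Ndufs7 holds the last iron-sulfur cluster of the chain, next to the pocket in which ubiquinone is reduced. It (chr10:79712197-79719537) had 432 and 396 FPKM at GV, 690.2 and 678 at MI, then 192 and 214 at MII in KO. In WT it had 519.8 and 518 FPKM at GV, 144 and 183 at MI, then 16.4 and 36.1 at MII. KO libraries were lower than WT at GV and higher at MI and MII, with no overlap at any stage. The difference was 2.07 ± 0.29 at MI (adjusted p = 0.000989, the largest called increase of the family at that stage), and at MII it was 3.0 ± 0.29 (adjusted p = 3.9e-05). With median scaling the MI difference was 1.05, with adjusted p = 0.0733. Between GV and MI the change in KO exceeded that in WT by 2.39 ± 0.41 (adjusted p = 0.0045), which was not called with rescaling to the same total or median scaling, and in KO the gene fell from MI to MII (−1.75 ± 0.29, adjusted p = 0.00538), lost with those scalings and without either KO MI library.

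Ndufs3 and Ndufs8 belong to the ubiquinone-binding part of the arm, Ndufs8 with further iron-sulfur clusters. Ndufs3 (chr2:90734793-90744878) had 379.7 and 336, 249.7 and 269, and 104 and 156 FPKM over the stages in KO, and 446 and 367, 68.5 and 84.2, and 38.7 and 3.74 FPKM in WT. Ndufs8 (chr19:3908870-3912717) had 147 and 133, 105 and 111, and 31.6 and 39.4 FPKM in KO, and 186 and 169, 33.2 and 57.8, and 16.2 and 0 FPKM in WT. In both genes the WT MII libraries lay below the KO MII libraries but far from each other. At MII Ndufs3 differed by 3.23 ± 0.72 (adjusted p = 0.00721, not called in the fit of the MII groups alone or without KO MII replicate 2) and Ndufs8 by 3.13 ± 0.96 (adjusted p = 0.0327, lost in 13 of 18 alternatives). A near-identical copy elsewhere in the genome makes the values of Ndufs3 uncertain. Ndufs1, the largest core subunit with several iron-sulfur clusters (chr1:63190166-63223396), differed from the core genes above at MII, with 33.4 and 18.3, 34.8 and 51.0, and 9.20 and 22.1 FPKM in KO and 21.5 and 38.9, 7.64 and 21.1, and 15.9 and 21.2 FPKM in WT. Its level was low in every group, its groups overlap at GV and MII, and no comparison of it was called in the main fit. At MI its libraries do not overlap and were higher in KO, by 1.64 (limma adjusted p = 0.0608). That MI difference was 0.669 to 2.32 over the alternatives. The MII difference was −0.33 ± 0.59 and turned to 0.26 without KO MII replicate 1.

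The accessory genes of the matrix arm ranged at MII from Ndufs6, with the largest difference of that arm, to Ndufa6 with almost none. Ndufs6, a zinc protein needed for a late step of assembly, had 175 and 161, 279 and 298, and 135 and 145 FPKM over the stages in KO and 286 and 269.7, 143 and 90.5, and 17.6 and 31.1 FPKM in WT. Ndufa9, which lies at the junction of the arms, had 388 and 319, 262 and 298, and 110.5 and 114 FPKM in KO and 588 and 569, 155 and 141, and 28.2 and 50.1 FPKM in WT. Both were lower in the KO than in the WT libraries at GV and higher at MII, without overlap. The MII difference was 2.53 ± 0.28 for Ndufs6 (adjusted p = 0.000111) and 1.55 ± 0.24 for Ndufa9 (adjusted p = 0.000988). These 2 genes were picked after their values were seen, and Ndufs6 has a near-identical copy elsewhere in the genome.

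Ndufa2, a small subunit with a thioredoxin-like fold, was the highest gene of the matrix arm. It had 1279.6 and 1458 FPKM at GV, 1004 and 1007 at MI, then 549.5 and 521 at MII in KO, and 1257 and 1245, 426 and 397, and 214 and 211 FPKM in WT. The genotypes do not overlap at any stage. In KO it fell from GV to MI by 0.44 ± 0.10 (adjusted p = 0.0171), the one such decrease called, which was lost in the fit of the KO GV and MI groups alone, without KO GV replicate 2 and without either KO MI library. Ndufa6, which binds the mitochondrial acyl carrier protein, was not called lower in either step of WT. It had 427 and 427, 683 and 784, and 337 and 489 FPKM in KO and 668 and 599.7, 564 and 434, and 427 and 369.9 FPKM in WT. Its MII libraries overlap, and the MII difference was 0.03 ± 0.19 (adjusted p = 0.943). With median scaling that difference was −0.74, with adjusted p = 0.021. Ndufs4, needed for a stable matrix arm, was low in all groups, from 53.1 to 126 FPKM in KO and from 19.0 to 92.9 FPKM in WT, and no comparison of it was called.

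In the membrane arm the largest MII differences were in Ndufb10 and Ndufc2. Ndufb10 (chr17:24859012-24861333), on the intermembrane-space side, had 181 and 212, 99.4 and 112, and 39.4 and 75 FPKM over the stages in KO and 166 and 270.5, 67.6 and 68.5, and 0 and 12.6 FPKM in WT. The MII groups do not overlap, with a WT library at 0. The difference at MII was 3.91 ± 0.90 (adjusted p = 0.00873, 2.02 to 5.79 over the alternatives) and was not called in the fit of the MII groups alone or without KO MII replicate 2. Ndufc2 (chr7:104548513-104556310), at the foot of the membrane arm, had 381 and 379, 534 and 546, and 236 and 279 FPKM in KO and 383 and 469, 206 and 193, and 35.3 and 13.2 FPKM in WT. It was higher in both KO libraries at MI and MII. Its MII difference of 3.5 ± 0.34 (adjusted p = 3.99e-05) was called under every alternative run, between 2.76 and 4.18. Its change from MI to MII was 2.07 ± 0.48 higher in KO than in WT (adjusted p = 0.0296), which was lost in 12 of 18 alternatives.

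**Figure D4:**
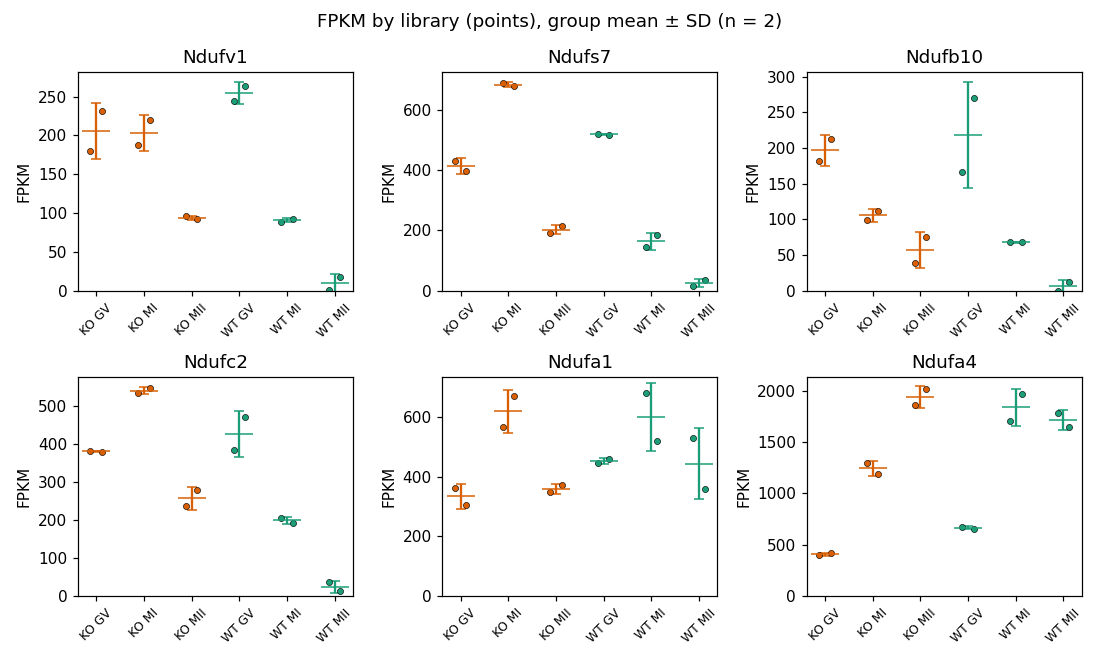
FPKM in each library (points) with the group mean and SD (n = 2) for 6 genes, KO groups left of WT groups in each panel, stages in order. Ndufv1, Ndufs7, Ndufb10 and Ndufc2 had 39.4 to 279 FPKM in the KO MII libraries and 0 to 36.1 FPKM in the WT MII libraries, Ndufa1 was at 304 FPKM or more throughout, and Ndufa4 was higher at MI and MII than at GV in both genotypes.

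Ndufb7, also on the intermembrane-space side (chr8:86090657-86095522), had 482 and 535, 296 and 319, and 130.1 and 54.9 FPKM over the stages in KO and 369 and 376, 104 and 185, and 4.56 and 13.3 FPKM in WT. Its WT MII level was the smallest part of a GV level among the 35 subunits. In WT it fell from MI to MII by 3.97 ± 0.47 (adjusted p = 0.000207; 0.093 in the fit of those groups alone), and in KO by 1.85 ± 0.47 (adjusted p = 0.0438, lost in 13 of 18 alternatives). Ndufa8, a further subunit of that side, fell from GV to MI in WT by 2.37 ± 0.32 (adjusted p = 0.000675), to 55.8 and 109.8 FPKM at MI against 408 and 409.6 FPKM at GV. For Ndufb4 and Ndufc1 the step from MI to MII differed between genotypes. Ndufb4 had 967 and 873 FPKM at MII and 973 and 1012 at MI in KO, against 108 and 64.5 FPKM at MII and 335 and 365 at MI in WT. Its change from MI to MII was 1.95 ± 0.27 higher in KO (adjusted p = 0.00215), called under every alternative run, but 2 near-identical copies elsewhere in the genome leave its values uncertain. For Ndufc1 the corresponding value was 1.52 ± 0.36 (adjusted p = 0.0328, lost in 8 of 18 alternatives).

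Ndufb11, an X-linked subunit of the membrane arm (chrX:20192452-20194690), had 949 and 1129, 1389 and 1280.1, and 492.0 and 491.9 FPKM over the stages in KO and 1363 and 1484, 291 and 398, and 93.7 and 97.3 FPKM in WT. The KO libraries were lower at GV and several-fold higher at MI and MII. The MI difference of 1.97 ± 0.15 (adjusted p = 2.79e-05) and the difference of the GV to MI changes, 2.43 ± 0.21 (adjusted p = 9.85e-05), were called under every alternative run. A near-identical copy elsewhere in the genome makes its values uncertain. Ndufb8 gave 2.18 ± 0.32 for the difference of those changes (adjusted p = 0.00219, not called with rescaling to the same total or median scaling). In KO, Ndufb6 and Ndufa11 were among the increases from GV to MI. Ndufb6 had 865 and 1002 FPKM at MI and 364 and 463 FPKM at GV (1.18 ± 0.17, adjusted p = 0.000981, lost with rescaling to the same total), and it fell again to 333 and 279.6 FPKM at MII (−1.61 ± 0.17, adjusted p = 0.000363). Ndufa11, at the contact of complex I with other respiratory complexes, had 211 and 208 FPKM at MI and 85.9 and 92.0 FPKM at GV (1.23 ± 0.23, adjusted p = 0.00569), a call lost with rescaling to the same total and without either KO MI library.

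Of the membrane arm genes, Ndufa1 and Ndufa3 were not called lower at either step in WT, and Ndufa10 was called lower at MI than at GV and not at MII than at MI. Ndufa1, an X-linked subunit essential for assembly, had 364 and 304, 569 and 671, and 348 and 372 FPKM over the stages in KO and 445 and 459, 681 and 521, and 529 and 359 FPKM in WT. Ndufa3 had 261 and 264, 472 and 562, and 309 and 243 FPKM in KO and 326 and 438, 332 and 476, and 406 and 317 FPKM in WT. Ndufa10, which has the fold of a nucleoside kinase, had 182 and 153, 216 and 166, and 156 and 111 FPKM in KO and 237 and 255, 102 and 167, and 132 and 185 FPKM in WT. The MII libraries of the genotypes overlap for Ndufa1 and Ndufa10 and not for Ndufa3. At MII the differences were −0.28 ± 0.20, −0.39 ± 0.22 and −0.25 ± 0.28 for Ndufa1, Ndufa3 and Ndufa10, none called. With median scaling all 3 were lower in KO, by −1.05, −1.16 and −1.01 (adjusted p = 0.0051, 0.0044 and 0.025). These genes, and Ndufa6 above, were picked after their values were seen.

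At MII Ndufa4 stood at 480% of its GV mean in KO and 258% in WT. Every subunit was lower (at most 166% and 98.1%). At MI Ndufa1, Ndufa3 and Ndufa5 were also above their GV means in WT (133%, 106% and 142%) and KO (186%, 197% and 160%). With median scaling these subunits and Ndufb6 were also called higher at MI than at GV in WT. With that scaling Ndufa1 and Ndufa5 were also lower in KO at MI, and Ndufa1, Ndufa3, Ndufa6, Ndufa10 and Ndufb6 at MII. Ndufa4 had 395 and 413 FPKM at GV, 1294 and 1187 at MI, then 1861 and 2016 at MII in KO. In WT it had 674 and 655, 1706 and 1964, and 1784 and 1643 FPKM. In WT the MI and MII libraries overlap, while in KO it was highest at MII. The difference in WT from MI to MII, −0.10 ± 0.09, was not called, and the genotypes do not overlap at any stage. It rose from GV to MI in KO (1.61 ± 0.09, adjusted p = 1.37e-06) and in WT (1.46 ± 0.09, adjusted p = 5.72e-06), both called under every alternative run. The KO level was below WT at GV (−0.72 ± 0.09, adjusted p = 0.00337) and at MI (−0.56 ± 0.09, adjusted p = 0.00257), and rose further from MI to MII (0.64 ± 0.09, adjusted p = 0.00311). Its change from MI to MII was 0.74 ± 0.13 higher in KO than in WT (adjusted p = 0.00955; not called without KO MI replicate 2 or KO MII replicate 2). At MII the difference, 0.18 ± 0.09, was not called and depends on the scale, −0.27 with rescaling to the same total and −0.59 with median scaling (adjusted p = 0.00192). Relative to the median subunit of the same library, Ndufa4 was 1.31-fold and 1.32-fold at GV, 4.18-fold and 3.57-fold at MI, then 10.8-fold and 12.9-fold at MII in KO, and 1.82-fold and 1.75-fold, 11-fold and 11.8-fold, and 31.2-fold and 25.5-fold in WT. Its paralogue Ndufa4l2, a hypoxia-induced gene, stayed between 0 and 16.5 FPKM and was at 0 in both WT MII libraries.

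Of 17 listed factors that assemble the complex, the table held the RNA of 10, of which 9 passed the filter. At MI 2 of the 9 were higher in KO, against 27.9% of all genes, Ndufaf3 (1.61 ± 0.40, adjusted p = 0.0156) and Ndufaf4 (1.03 ± 0.34, adjusted p = 0.0451), which act together early in assembly. Ndufaf3 had 43.2 and 75.5 FPKM in KO and 14.6 and 22.4 FPKM in WT at MI, and Ndufaf4 had 43.3 and 49.6 FPKM in KO and 18.6 and 26.4 FPKM in WT. At MII 2 of the 9 were called higher, against 25.4% of all genes, Ndufaf3 and Ecsit, a factor of membrane arm assembly. At that stage Ndufaf3 had 17.1 and 27.2 FPKM in KO and Ecsit had 6.34 and 12.9 FPKM in KO, and both were listed at 0 in both WT libraries, so no fold is given. None of the 9 was called at GV in limma (0 at an unadjusted p below 0.05). In WT, 4 of the 9 fell from GV to MI (median −1.59) and 2 fell from MI to MII (median −0.64), against 21.7% and 16.4% of all genes. With median scaling 1 of the 9 fell in WT from GV to MI, against 5.9% of all genes. From MI to MII 2 then fell and Ndufaf2 rose (0.82, limma adjusted p = 0.0156), against 13.5% and 11.0%. In KO none was called in either step in limma, and rescaling to the same total called 2 lower from GV to MI, against 3.69% of all genes. At an unadjusted p below 0.05, 2 were lower at MI than at GV and 1 at MII than at MI in KO, against 510 and 2440 of the 11667 genes. Ndufab1, the mitochondrial acyl carrier protein that is also a complex I subunit and lies outside the rule, had 785 and 676 FPKM at MI, then 570.3 and 556 FPKM at MII in KO, against 336 and 351 FPKM at MI, then 311 and 456 FPKM at MII in WT, with differences of 1.08 ± 0.18 (adjusted p = 0.00257) and 0.58 ± 0.18 (adjusted p = 0.0373). With median scaling neither Ndufaf3 nor Ndufaf4 was called at MI and Ndufab1 was called at neither stage, while Ndufaf3 and Ecsit were still called at MII. Ndufaf2 was then called lower in KO at MII (−0.91, limma adjusted p = 0.00986), against 10.4% of all genes. As deposited it had 264 and 272 FPKM in KO and 334 and 260 FPKM in WT at MII, which overlap. Ndufaf2 was picked after its values were seen.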

How the data were processed

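The authors deposited FPKM per gene for all 12 libraries in 1 table, which was used as deposited. The submitters' processing notes name Cufflinks 2.2.1, TopHat2 2.0.11, Bowtie2 2.1.0 and CASAVA 1.8 and the mouse build mm9, with no role or order given. Strandedness, the factor behind each FPKM total and read counts: not given in the sources used here; hence depth is unknown and precision rests on the libraries' number. Per the labels' protocols, libraries were made with Tn5 transposase from pre-amplified cDNA, so neighbouring or antisense transcripts may share reads.

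log2(FPKM + 1) of the 11667 genes with a mean of at least 1 FPKM was fitted with limma 3.58.1 in R 4.3.3, with 6 group means, an abundance trend, 6 residual and 4.27 prior degrees of freedom. Tests are 2-sided, adjusted by Benjamini-Hochberg over all genes within a comparison, and called below 0.05. The fit was tested on simulated data. Differences understate the change of low genes. Members, lists and tests were chosen with earlier results of these data known. Genes named are, per comparison, up to 3 called increases and 3 decreases without overlap and with at least 5 FPKM in the higher group, the core subunits, Ndufa4, Ndufa4l2, up to 2 called assembly factors per KO vs WT comparison, and those said to be picked afterwards. The values of 1 core subunit are not reported here by name and it is not drawn, but it stays in the counts and medians. Near-identical copies (at least 95% identity over 90% of the coding sequence) were searched for with minimap2 2.31 in NCBIM37 and found for 6 of the 37 genes, Ndufa7, Ndufb4, Ndufb11, Ndufs3, Ndufs5 and Ndufs6. As alternatives, values were rescaled to the same total (TPM) or to the same median, a pseudocount of 0.1 or no filter was used, and the model was refitted on the compared groups alone, with a replicate block and without each library in turn.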

Additional observations from a re-analysis of the deposited data

Results flagged for a closer look

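In limma, 7 named stage changes differed between the genotypes by a test of the difference itself, given as the KO change minus the WT change on the log2 scale. From GV to MI these were Ndufb11 (2.43), Ndufs7 (2.39) and Ndufb8 (2.18), and from MI to MII Ndufc2 (2.07), Ndufb4 (1.95), Ndufc1 (1.52) and Ndufa4 (0.74). Over all genes tested the median of the same quantity was 1.13 from GV to MI and −0.25 from MI to MII. Ndufb11 and Ndufb4 were called under every alternative run, but both have near-identical copies elsewhere in the genome. With median scaling the values were 1.30 for Ndufb11, 1.27 for Ndufs7 and 1.05 for Ndufb8, of which Ndufb11 alone was called. At the later step median scaling left all 4 called, with Ndufa4 at 0.99 and Ndufb4 at 2.21.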

How the results depend on the processing

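Of 324 recomputed counts of called genes, 257 stayed within 1.5 times the main count. Rescaling to the same total gave 5 higher in KO at MI, 2 lower in KO at MII, 3 higher in WT MI vs GV, 1 higher and 5 lower in KO MI vs GV, 2 lower in KO MII vs MI, and 1 higher and 1 lower for the difference of GV to MI changes. Of the 11638 genes then tested, the counts in the same order were 497, 739, 494, 315 and 430, 119, and 114 and 80. Median scaling gave 1 higher and 3 lower in KO at MI, 6 lower in KO at MII, 5 higher and 7 lower in WT MI vs GV, 3 higher and 3 lower in KO MI vs GV, 2 lower in KO MII vs MI, and 1 higher and 1 lower for the GV to MI difference. Fits of the compared groups alone gave 0 lower in KO at GV, 14 higher in KO at MII, 0 lower in WT MII vs MI and 3 lower in KO MI vs GV, and no filter gave 11 lower in KO MII vs MI. Over all genes the counts in the same order were 0, 1365, 0 and 254 of 11667, and 807 of 16170 without the filter. Causes were not tested. The next counts are of members, and counts over all genes also moved when 1 library was left out. Leaving out 1 library gave 1 to 3 genes lower in KO at GV, 12 to 29 higher in KO at MI, 20 to 27 higher in KO at MII, 1 to 2 higher and 11 to 27 lower in WT MI vs GV, 22 to 26 lower in WT MII vs MI, 2 to 16 higher and 0 to 2 lower in KO MI vs GV, 3 to 25 lower in KO MII vs MI, 9 to 26 higher for the GV to MI difference, and 2 to 12 higher and 0 to 1 lower for the MI to MII difference. Reversed values, none called in the main fit, were Ndufs1 at MII (−0.925 to 0.258 without a KO MII library) and in WT MII vs MI (−0.191 to 1.16 without a WT MI library), and Ndufa4 at MII (−0.273 rescaled, −0.593 median scaled), in WT MII vs MI (0.149, 0.277, and −0.198 to 0.00516 without a WT MI library) and in the GV to MI difference (−0.737, −0.971). Same-numbered libraries did not deviate together over all genes (correlations −0.0292 to 0.0547). Such correlations cannot show whether same-numbered libraries were collected together, and the labels give no pairing. With a replicate block 23 genes were higher in KO at MI, 26 at MII, 19 fell in WT MI vs GV, 25 in WT MII vs MI and 15 in KO MII vs MI, and the other counts did not change. Over all 11667 genes the counts in the same order were 3239, 2905, 2473, 1899 and 752. Without read counts, values near 0 cannot be told from low depth.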
